A study of Rattus norvegicus with 2 samples.

Results

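Neurotransmitter receptors are examined here in the rat duodenal mucosa, as all probe sets of the array whose single gene symbol belongs to the GABA-A (Gabr), AMPA (Gria), NMDA (Grin), kainate (Grik), metabotropic glutamate (Grm), serotonin (Htr), dopamine (Drd), adrenergic (Adra, Adrb), muscarinic (Chrm) or nicotinic (Chrn) receptor families. The rule reads symbols and no signal, although it was set with earlier results of these data known. It gave 125 probe sets for 83 genes, out of 8799 probe sets in all, and every match was a receptor gene. The 2 probe sets of Grina, which carries a similar symbol but is not one of the NMDA channel subunit genes, were left out. One array held RNA from a rat that lived immobilized in a cage made for this for 2 weeks. The other held RNA from a control rat that spent the same 2 weeks in a metabolic cage and was not immobilized. Both were male Wistar rats of 15 weeks, and no treatment other than the housing is named. Total RNA of the duodenal mucosa, which the labels also call epithelial cells, was biotin-labelled and hybridised to the rat U34A array of Affymetrix. The labels describe a single rat on each array, so nothing is known of the spread between animals, and no test between the groups was possible. With 1 array per group, the number of arrays limits the precision throughout.

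Fast transmission runs through ligand-gated channels, which are rings of subunits with a pore that opens when acetylcholine, glutamate, GABA or serotonin binds. Slower signals run through G protein-coupled receptors, each a single chain that activates a G protein inside the cell. In the gut most of these receptors are known from enteric neurons and muscle, whereas the epithelium is known for fewer, among them muscarinic receptors that act on chloride secretion and adrenergic receptors that act on absorption. Serotonin is made in quantity by enteroendocrine cells of the mucosa and acts on nerve endings beneath them.

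The deposited values are signals, 1 per probe set, on a linear scale. A probe set was counted as above the median if its signal exceeded the median of all probe sets other than array controls on the same array, which was 39.6 signal units in the immobilized rat and 40.2 in the control rat. This median is a mark on the signal scale and no detection call, since probe sets differ in how strongly they bind their target, and signals of different probe sets are not compared as amounts of RNA. Markers of absorptive enterocytes were above the median on both arrays for 8 of 8 genes, with signals of their brightest probe sets between 2770.0 and 7114.9 in the immobilized rat and between 2184.9 and 7994.6 in the control rat. Their signals summed to 33054.8 in the immobilized rat and 39123.8 in the control rat, with 6 genes lower and 2 higher in the immobilized rat. Markers of neurons and glia were above the median on both arrays for 0 of 12 genes, and their signals summed to 175.4 in the immobilized rat and 203.2 in the control rat. The neurofilament gene Nefl exceeded it in the control rat only (14.2 in the immobilized rat, 43.6 in the control rat), and the other 11, Snap25, Syp and Uchl1 among them, lay below it on both arrays. Smooth muscle markers were above it on both arrays for 4 of 6 genes. Their signals summed to 608.9 in the immobilized rat and 330.6 in the control rat. The brightest of them, Acta2, had 284.3 in the immobilized rat and 90.3 in the control rat, but another Acta2 probe set was slightly lower in the immobilized rat. Actg2, Myh11 and Cnn1 were also higher in the immobilized rat. Tagln (65.5 in the immobilized rat, 67.3 in the control rat) and Des (9.3 and 10.3) were not. The part of smooth muscle in the receptor values was not tested. The exocrine pancreas list was above it for 8 of 8 genes, and its signal summed to 9853.9 in the immobilized rat and 4989.3 in the control rat. Fewer cells of a type and less RNA per cell cannot be told apart in such samples.

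Most receptor probe sets gave signals below the median of their array. In the immobilized rat 20 of the 125 receptor probe sets were above the median (16.0%), and in the control rat 31 were (24.8%). Among all 7006 probe sets with 1 symbol the shares were 51.4% in the immobilized rat and 51.7% in the control rat. On both arrays at once 19 receptor probe sets were above the median (15.2%), against 48.4% of all probe sets with 1 symbol, and 93 (74.4%) were above it on neither. The median receptor signal was 10.9 in the immobilized rat and 13.5 in the control rat, against 42.4 in the immobilized rat and 44.0 in the control rat over all probe sets with 1 symbol. Signals under 10 on both arrays were found for 48 receptor probe sets (38.4%), against 20.4% of all with 1 symbol. Signals above 100 on both arrays were found for 4 receptor probe sets, which belong to Chrm3, Drd3, Grm4 and Chrng (3.2%, against 32.2% of all with 1 symbol). The shares followed the mark, at 44.8% in the immobilized rat and 50.4% in the control rat above the 30th percentile of each array, against 71.2% and 71.3% of all with 1 symbol. Above the 70th percentile they were 2.4% in the immobilized rat and 3.2% in the control rat, against 30.5% and 30.6%. By gene, 19 of 83 receptor genes (22.9%) had a probe set above the median on both arrays, against 53.2% of the 4736 genes with 1 symbol.

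**Figure D1:**
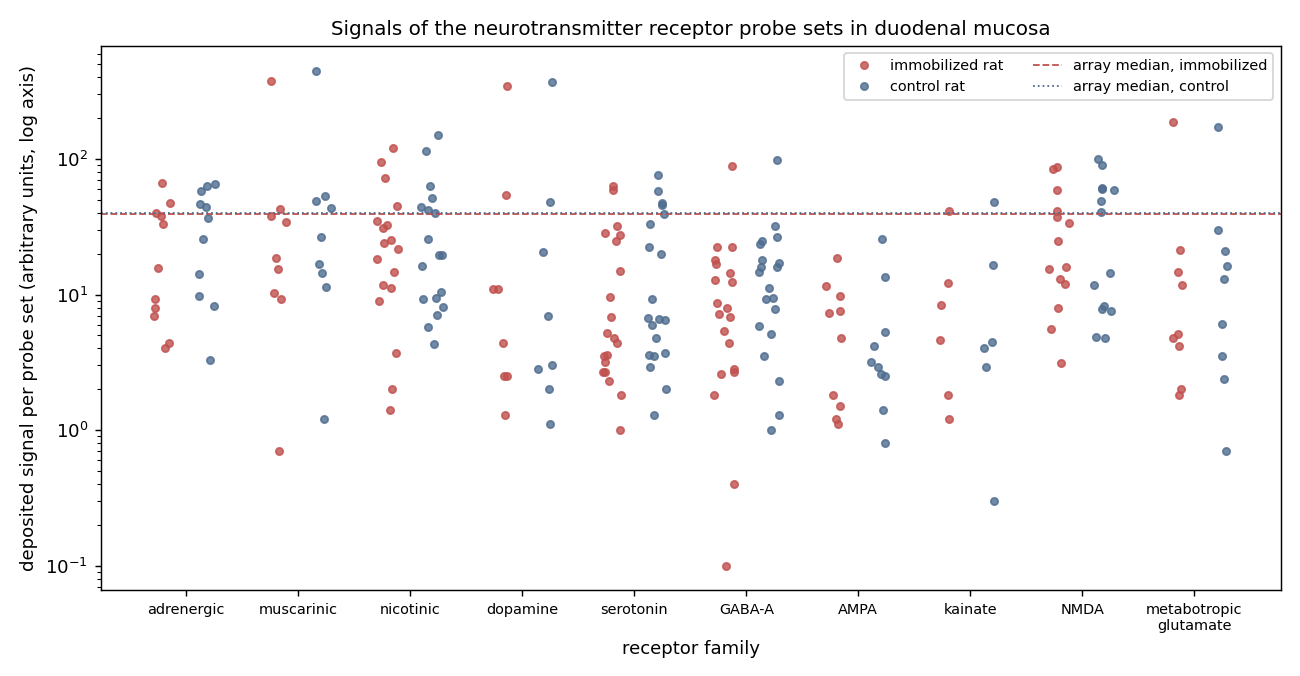
Deposited signal of each of the 125 receptor probe sets (log axis, arbitrary units) by receptor family, with the immobilized rat in red at the left and the control rat in blue at the right of each family, 1 point per probe set. The horizontal lines mark the array medians of 39.6 (immobilized) and 40.2 (control), and most points lie below them on both arrays.

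The share above the median differed between receptor families. It was highest for NMDA receptors, at 4 of 14 probe sets in the immobilized rat (28.6%) and 7 of 14 in the control rat (50%), and for adrenergic receptors, at 3 of 11 in the immobilized rat (27.3%) and 5 of 11 in the control rat (45.5%). Muscarinic receptors had 2 of 9 in the immobilized rat and 4 of 9 in the control rat. Among GABA-A receptor probe sets 1 of 20 was above the median on each array, and among AMPA receptor probe sets 0 of 10. Ligand-gated channels, the serotonin channel Htr3a included, had 11 of 71 in the immobilized rat (15.5%) and 16 of 71 in the control rat (22.5%). G protein-coupled receptors had 9 of 54 in the immobilized rat (16.7%) and 15 of 54 in the control rat (27.8%). The families hold between 6 and 20 probe sets, so that 1 probe set moves a share by 5.0 to 16.7 percentage points. Other families of membrane proteins on the same arrays were also low. Ion channel subunits reached 15.9% in the immobilized rat and 17.7% in the control rat (164 probe sets), peptide and hormone receptors 12.4% in the immobilized rat and 13.5% in the control rat (89), and cytokine and chemokine receptors 34.2% in the immobilized rat and 31.6% in the control rat (38). These shares are descriptions, and no test of their differences was made.

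**Figure D2:**
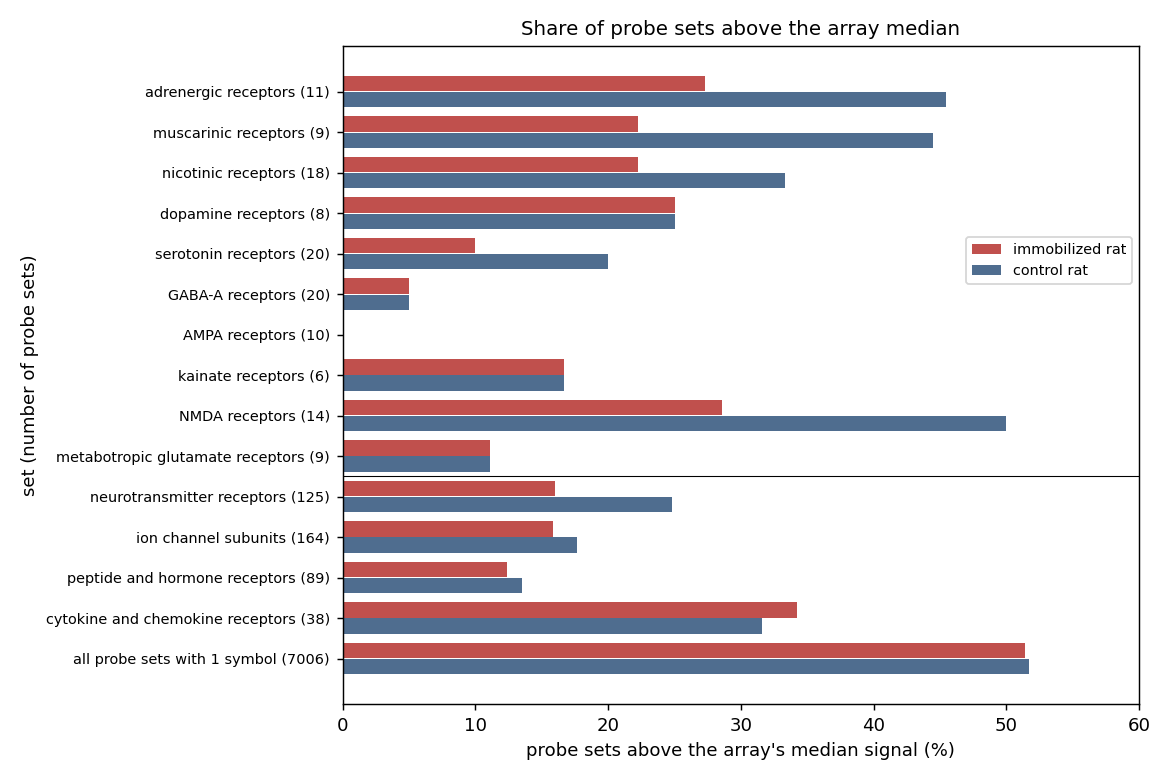
Percentage of probe sets above the median signal of their array for each receptor family and, under the line, for all neurotransmitter receptors and sets compared with them. Red bars are the immobilized rat and blue bars the control rat, numbers in brackets are probe sets, and all receptors together reach 16.0% in the immobilized rat and 24.8% in the control rat, against 51.4% and 51.7% of all probe sets with 1 symbol on the same arrays.

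The muscarinic acetylcholine receptors are G protein-coupled, and Chrm3 encodes the member that couples to calcium release and drives secretion in many glands. A Chrm3 probe set had a signal of 379.1 in the immobilized rat and 448.5 in the control rat, a log2 ratio of -0.22 after scaling of the arrays (1.16-fold lower in the immobilized rat). Ratios are of the immobilized over the control rat and were taken after the immobilized array was multiplied by 1.02. The other Chrm3 probe set had 34.1 in the immobilized rat and 43.5 in the control rat, the first below and the second just above the median, so the probe sets of this gene differ in whether they place it above the mark. Chrm4, whose product lowers cyclic AMP, had 43.0 in the immobilized rat and 52.9 in the control rat at one probe set (log2 ratio -0.28), but 0.7 in the immobilized rat and 1.2 in the control rat at the other. Chrm5 had 37.7 in the immobilized rat and 49.1 in the control rat, and thus exceeded the median in the control rat only, at least 1.22-fold lower in the immobilized rat. Chrm2, the main muscarinic receptor of gut smooth muscle by amount, was below the median at both probe sets on both arrays (9.2 and 15.5 in the immobilized rat, 11.3 and 14.3 in the control rat). Chrm1 was also below it, at 10.2 and 18.6 in the immobilized rat and 16.8 and 26.6 in the control rat.

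Of 8 dopamine receptor probe sets, 2 were above the median on both arrays. Drd3, which encodes a dopamine receptor that lowers cyclic AMP, had 344.8 in the immobilized rat and 372.2 in the control rat at one probe set (log2 ratio -0.09, 1.06-fold lower in the immobilized rat). Its other probe set had 2.5 in the immobilized rat and 2.0 in the control rat, among the low signals of these arrays. The 2 Drd3 probe sets therefore lay far above and far below the median in the same RNA, on both arrays. Drd5, whose product raises cyclic AMP, had 54.4 in the immobilized rat and 48.5 in the control rat (log2 ratio 0.19, 1.14-fold higher in the immobilized rat). Drd1, Drd2 and Drd4 were below the median on both arrays, with signals of at most 10.9 in the immobilized rat and at most 20.7 in the control rat over 5 probe sets.

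The stretch of 250 bases before the gene start is shown for Chrm3 and Drd3, since no other receptor genes had signals above 300 on both arrays. The sequences are from RefSeq on build GRCr8, read 5′ to 3′ on the strand of the gene. Capitals mark the GC box core GGGCGG on either strand.
Chrm3 (chr17:64696677-64696926, plus strand): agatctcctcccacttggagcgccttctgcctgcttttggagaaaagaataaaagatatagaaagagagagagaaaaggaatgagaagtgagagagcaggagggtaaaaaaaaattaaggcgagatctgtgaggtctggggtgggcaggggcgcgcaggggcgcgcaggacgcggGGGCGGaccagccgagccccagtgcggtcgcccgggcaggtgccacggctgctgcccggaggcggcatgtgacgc
Drd3 (chr11:70437794-70438043, minus strand): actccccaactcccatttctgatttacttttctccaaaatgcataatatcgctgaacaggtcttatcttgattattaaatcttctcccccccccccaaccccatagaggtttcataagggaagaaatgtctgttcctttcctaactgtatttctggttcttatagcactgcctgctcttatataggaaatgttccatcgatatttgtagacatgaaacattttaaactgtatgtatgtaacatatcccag
The Chrm3 stretch was 60% G and C, with 17 CpG dinucleotides and 1 GC box. The Drd3 stretch was 38% G and C, with 2 CpG dinucleotides and no such box, so the receptor genes above 300 signal units differed in these features. Promoter windows of 300 bases, which reach 50 bases past the gene start, were matched by gene ID for 63 of the 83 receptor genes. Their median G and C content was 64% for 15 genes above the median on both arrays and 58.3% for the other 48, against 60% over 3871 genes with a probe set on the array. GGGCGG was present on either strand in 28 of the 63 windows (44.4%), against 56.2% of array genes and 34.9% of all 27457 windows. TATAAA was present on either strand in 3 of the 63 (4.76%), against 11.3% of array genes and 14.3% of all windows. A match is a description of the letters in this window and not of binding.

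Serotonin receptors were mostly below the median. Htr3a, the subunit that forms the serotonin-gated cation channel and is known from sensory nerve endings, had 63.3 in the immobilized rat and 76.2 in the control rat at one probe set (log2 ratio -0.24). Its other probe sets had 5.2 and 9.6 in the immobilized rat and 9.2 and 1.3 in the control rat, all below the median. Htr6, whose product raises cyclic AMP, had 58.7 in the immobilized rat and 58.5 in the control rat (log2 ratio 0.03, with the sign turned after quantile normalization), so its signals hardly differed between the animals. Htr5a had 32.3 in the immobilized rat and 45.5 in the control rat, and was at least 1.13-fold lower in the immobilized rat. Htr5b had 4.4 in the immobilized rat and 47.2 in the control rat. With the lower value under the median, only a bound of at least 1.17-fold lower in the immobilized rat could be given, although the signals themselves lie far apart. Htr4, a receptor that promotes motility, reached at most 28.4 in the immobilized rat and 33.1 in the control rat over 3 probe sets. The family members Htr1a, Htr1b, Htr1d, Htr1f, Htr2a, Htr2b, Htr2c and Htr7 were below the median at every probe set on both arrays, with Htr1d (27.4 in the immobilized rat, 39.6 in the control rat) just under it in the control rat.

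Adrenergic receptors bind noradrenaline and adrenaline. Adra2a, whose product lowers cyclic AMP and promotes fluid absorption in the intestine, had 66.5 in the immobilized rat and 62.8 in the control rat at one probe set (log2 ratio 0.11). Its other probe sets were below the median, at 32.9 and 8.0 in the immobilized rat and 36.6 and 14.1 in the control rat. Adra2b had 40.3 in the immobilized rat and 57.6 in the control rat (log2 ratio -0.49, 1.41-fold lower in the immobilized rat), the first of these barely above the median. Adra1d, which couples to calcium release, had 47.3 in the immobilized rat and 65.8 in the control rat (log2 ratio -0.45, 1.37-fold lower in the immobilized rat), but 4.0 in the immobilized rat and 3.3 in the control rat at the other probe set. The beta receptors exceeded the median in the control rat only. Adrb1, known from heart, had 9.2 in the immobilized rat and 46.4 in the control rat, at least 1.15-fold lower in the immobilized rat. Adrb3, known from fat and smooth muscle, had 37.9 in the immobilized rat and 44.5 in the control rat, at least 1.11-fold lower. Adra1a, Adra1b and Adra2c were below the median on both arrays, at most 15.7 in the immobilized rat and 25.5 in the control rat.

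Nicotinic acetylcholine receptors are channels of 5 subunits, and 2 of the 3 nicotinic genes above the median on both arrays encode subunits of the muscle receptor. Chrng, the gamma subunit of the fetal muscle receptor, had 120.7 in the immobilized rat and 150.5 in the control rat (log2 ratio -0.29, 1.23-fold lower in the immobilized rat). Chrnb1, the beta subunit of the muscle receptor, had 72.3 in the immobilized rat and 63.4 in the control rat (log2 ratio 0.21). The remaining muscle subunits were Chrna1 (34.6 in the immobilized rat, 44.5 in the control rat), Chrne (31.1 in the immobilized rat, 42.3 in the control rat) and Chrnd (25.1 in the immobilized rat, 39.7 in the control rat), of which the first pair exceeded the median in the control rat only. Chrnb4, a ganglionic subunit, had 94.4 in the immobilized rat and 115.4 in the control rat at one probe set (log2 ratio -0.27). At its other probe set it had 45.2 in the immobilized rat and 19.7 in the control rat, the only receptor probe set above the median in the immobilized rat alone, with a bound of 1.14-fold higher. The probe sets of Chrnb4 thus pointed in opposite directions. Chrna3 and Chrna5, the subunits that assemble with Chrnb4 in ganglia, were below the median, at 11.7 and 3.7 in the immobilized rat and 5.8 and 10.4 in the control rat. Chrna7, known from neurons and immune cells, had 32.5 in the immobilized rat and 51.2 in the control rat at one probe set (at least 1.27-fold lower in the immobilized rat) and was below the median at its other 2 probe sets on both arrays. Chrna2, Chrna4, Chrna6, Chrna9, Chrnb2 and Chrnb3 stayed below it on both arrays.

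NMDA receptors are glutamate-gated calcium channels that need the obligatory subunit Grin1 to reach the surface. Grin1 was below the median at all 4 probe sets, between 3.1 and 16.1 in the immobilized rat and between 4.8 and 11.7 in the control rat. Its partner subunits had probe sets on both sides of the median. Grin2a had 84.0 in the immobilized rat and 100.4 in the control rat (log2 ratio -0.23) at one probe set and 11.9 in the immobilized rat and 14.4 in the control rat at the other. Grin2b had 87.5 in the immobilized rat and 91.0 in the control rat at its single probe set (log2 ratio -0.03). Grin2a and Grin2b therefore each had a probe set above the median on both arrays, and the obligatory subunit had none. This is no comparison of their amounts of RNA, since the signals come from different probe sets. Grin2c had 41.6 in the immobilized rat and 61.2 in the control rat at one probe set, the lowest ratio among receptors above the median on both arrays (log2 ratio -0.53, 1.45-fold lower in the immobilized rat). The other Grin2c probe set had 33.9 in the immobilized rat and 58.7 in the control rat, at least 1.46-fold lower in the immobilized rat, so both probe sets were lower there. Grin2d had 25.0 in the immobilized rat and 60.1 in the control rat at one probe set (at least 1.49-fold lower in the immobilized rat) and 37.3 in the immobilized rat and 40.9 in the control rat at the other. Grin3a had 59.3 in the immobilized rat and 49.4 in the control rat (log2 ratio 0.29, the highest of the receptors above the median on both arrays). A second Grin3a probe set from the same sequence record had 13.1 in the immobilized rat and 8.3 in the control rat, and the third had 5.6 in the immobilized rat and 4.9 in the control rat.

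Of the remaining glutamate receptors, few were above the median. Grm4, a metabotropic receptor that lowers cyclic AMP and is also known from taste cells, had 188.3 in the immobilized rat and 171.3 in the control rat (log2 ratio 0.16, 1.12-fold higher in the immobilized rat). The other metabotropic receptors, Grm2, Grm3, Grm5, Grm6, Grm7 and Grm8, were below the median on both arrays, at most 21.3 in the immobilized rat and 29.8 in the control rat. Grik5, an accessory kainate receptor subunit, had 41.5 in the immobilized rat and 48.1 in the control rat (log2 ratio -0.19). Grik1 to Grik4 were at most 12.1 in the immobilized rat and 16.6 in the control rat. The AMPA receptor subunits Gria1 to Gria4 were at most 18.6 in the immobilized rat and 25.5 in the control rat over 10 probe sets. The family of AMPA receptors thus had no probe set above the median on either array. Among GABA-A receptor subunits only Gabrr1, a rho subunit best known from retina, was above the median, with 89.0 in the immobilized rat and 98.6 in the control rat (log2 ratio -0.12). The other 14 subunit genes reached at most 22.6 in the immobilized rat and 32.1 in the control rat, and Gabrp, the pi subunit known from epithelia, had 5.4 in the immobilized rat and 11.1 in the control rat.

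Probe sets of the same receptor gene often disagreed on which side of the median it lay. Of the 83 genes, 31 had more than 1 probe set, and 10 of these had a probe set above the median on both arrays. In 0 of the 10 were all probe sets above the median on both arrays, against 562 of 1069 other genes (52.6%). Ion channel subunits had 1 of 13 such genes, peptide and hormone receptors 1 of 7, and cytokine and chemokine receptors 1 of 3. The remaining 9 of the 19 receptor genes above the median, such as Grm4, Grin2b, Gabrr1 and Chrng, were read by a single probe set, so their place above the median had no second reading. Where 2 probe sets came from one sequence record, they could also differ, as for Grin3a, for Chrna7 (32.5 and 14.6 in the immobilized rat, 51.2 and 19.7 in the control rat) and for Htr4 (4.8 and 28.4 in the immobilized rat, 6.6 and 33.1 in the control rat). Which transcripts bind these probe sets was not tested.

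**Figure D3:**
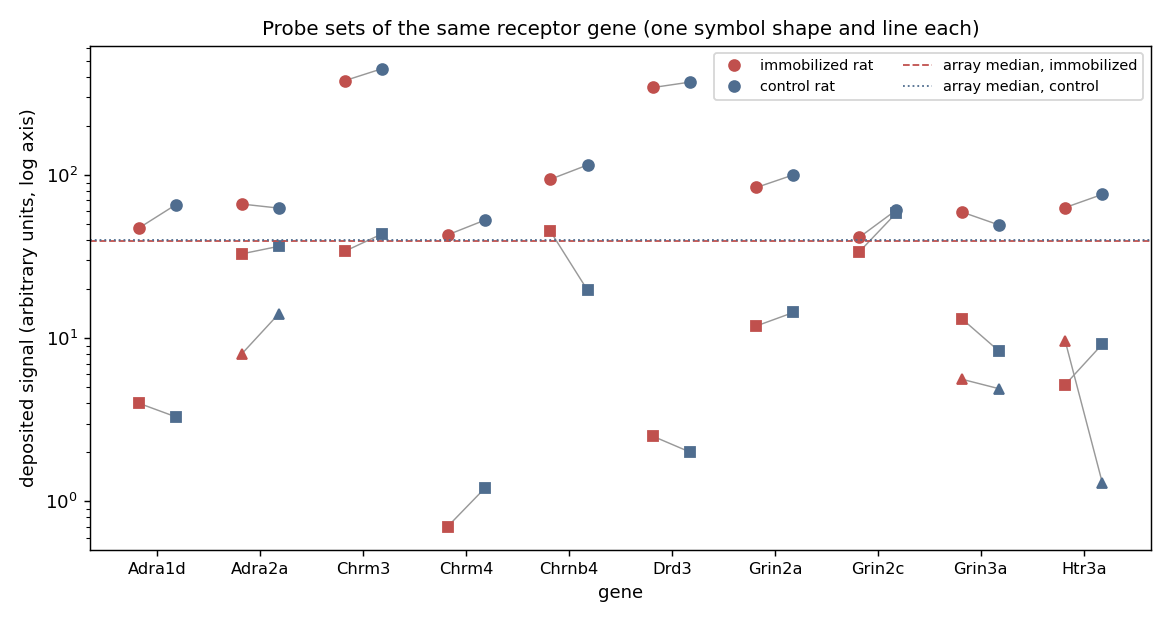
Deposited signal (log axis, arbitrary units) of every probe set of the 10 receptor genes with several probe sets of which at least 1 was above the median on both arrays, with the immobilized rat in red at the left and the control rat in blue at the right. A line joins the readings of one probe set, the horizontal lines are the array medians, and each gene has at least 1 probe set below the median on an array, with Drd3 at 344.8 and 2.5 in the immobilized rat.

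Ratios could be taken only for the receptor probe sets above the median on both arrays, which leaves out any whose signal was low in 1 rat, such as Htr5b and Adrb1. Among these 19, the log2 ratio lay between -0.53 and 0.29, with 6 above 0 and 13 below 0 (68.4%), against 50.3% below 0 among all 3391 probe sets with 1 symbol above the median on both arrays. The median log2 ratio was -0.19, against -0.00167 over those 3391. Similar sets also held ratios below 0. These were 7 of 9 probe sets of peptide and hormone receptors (77.8%, median -0.16) and 13 of 22 of ion channel subunits (59.1%, median -0.05). Cytokine and chemokine receptors had 5 of 11 below 0 (45.5%, median 0.17). A 2-fold higher signal in the immobilized rat was found for 0 of the 19, against 1.89% of the 3391, and a 2-fold lower one for 0, against 0.796%. The technical SD, taken from how far the log2 ratios of a gene's own probe sets lay apart, was 0.31 (695 genes) and covers error within this pair of arrays, not between animals. It rests on genes with several probe sets above the median on both arrays, and no receptor gene was among them. For mean signals under 100, where 14 of the receptor probe sets lay, it was 0.33 (75 genes). For 16 of the 19 receptor probe sets (84.2%) the ratio was smaller than 1 SD of 0.31, and for all 19 smaller than 2, against 60.5% and 87.8% of all 3391. Grin2c, Adra2b and Adra1d were the 3 beyond 1 SD, all lower in the immobilized rat. With the floor at the 30th percentile, 50 receptor probe sets had a ratio and 4 reached 2-fold, 1 of them higher (Chrnb4) and 3 lower (Grin2d, Gabra6 and Gabra2, of which both Gabra genes were picked out once their values were known) in the immobilized rat, against 3.23% higher and 2.21% lower of all 4671 probe sets with 1 symbol above that floor on both arrays.

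**Figure D4:**
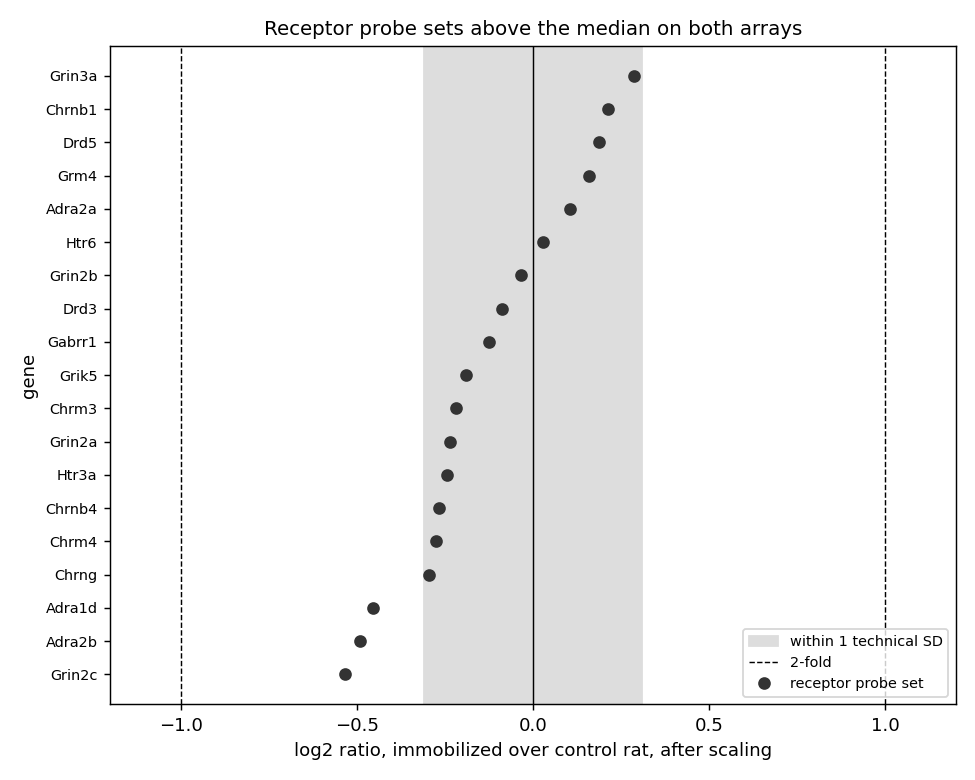
Log2 ratio of the immobilized over the control rat after scaling for the 19 receptor probe sets above the median on both arrays, 1 point each, ordered from highest to lowest. The grey band is 1 technical SD (0.31) on either side of 0 and the dashed lines are 2-fold, and the points run from 0.29 for Grin3a to -0.53 for Grin2c.

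The rats differed in how many receptor probe sets exceeded the median on 1 array only. Above the median in the control rat only were 12 receptor probe sets (9.60%), against 3.28% of all probe sets with 1 symbol, and above it in the immobilized rat only was 1 (0.80%), against 3.01%. The 12 belong to Adrb1, Adrb3, Chrm3, Chrm5, Chrna1, Chrna7, Chrne, Grin2c, Grin2d with both of its probe sets, Htr5a and Htr5b. Their signals in the control rat lay between 40.9 and 60.1, not far above the median of 40.2. In the immobilized rat they lay between 4.4 (Htr5b) and 37.9 (Adrb3), with Adrb1 at 9.2 and a Grin2d probe set at 25.0 also well below the median of 39.6. Their bounds, which do not use how far below the median a signal lay, were between 1.02-fold and 1.49-fold lower in the immobilized rat. None reached a bound of 2-fold, against 4.35% of the 230 probe sets above the median in the control rat only. The control-only share was 4.27% for ion channel subunits, 3.37% for peptide and hormone receptors and 2.63% for cytokine and chemokine receptors. Among the lists described below it was 14.3% of 21 probe sets for transmitter synthesis and breakdown and 9.38% of 32 for transmitter transporters. For receptor coupling it was 7.14% of 56 and for receptor anchoring 3.57% of 28. The immobilized-only shares of all these sets lay between 0% and 5.26%.

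Receptor probe sets below the median on both arrays also had the lower signal in the immobilized rat more often than not. After scaling, 60 of these 93 were lower in the immobilized rat (64.5%), against 56.8% of all 3174 probe sets with 1 symbol below the median on both arrays. The same share was 61.1% of 131 for ion channel subunits, 57.3% of 75 for peptide and hormone receptors and 41.7% of 24 for cytokine and chemokine receptors. Over all signal levels, 85 of the 125 receptor probe sets (68.0%) were lower in the immobilized rat, against 53.4% of 7006. That share was 61.0% for ion channel subunits, 59.6% for peptide and hormone receptors and 42.1% for cytokine and chemokine receptors. No test was made.

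Genes that make, clear and transmit these signals were above the median on both arrays for 35.7% to 53.3% of a list, against 53.2% of all genes with 1 symbol and 22.9% of receptor genes. Of 14 genes of transmitter synthesis and breakdown, 5 were above the median on both arrays at their brightest probe set, 2 with a ratio above 0 and 3 below, none at 2-fold. Maoa, the monoamine oxidase that degrades serotonin and noradrenaline, had 336.9 in the immobilized rat and 627.8 in the control rat (log2 ratio -0.87, 1.83-fold lower in the immobilized rat), and its second probe set had a log2 ratio of -0.66. Ddc, the decarboxylase that completes serotonin and dopamine synthesis, had 643.4 in the immobilized rat and 895.6 in the control rat (log2 ratio -0.45). Glul, glutamine synthetase, had a log2 ratio of 0.34 and Maob one of -0.15. Chat, Gad1, Gad2 and Dbh, enzymes known from neurons, were below the median on both arrays, at most 17.4 in the immobilized rat and 22.1 in the control rat. Tph1 (19.4 in the immobilized rat, 16.3 in the control rat) and Hdc (2.5 and 4.9) were also below it on both arrays. Low signals in this list were thus not particular to the enzymes known from neurons. Th, which starts dopamine synthesis, had 28.7 in the immobilized rat and 46.9 in the control rat, and Ache, which breaks down acetylcholine, had 31.5 in the immobilized rat and 50.4 in the control rat, both above the median in the control rat only.

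Among 18 transmitter transporter genes, 7 were above the median on both arrays, 4 with a ratio above 0 and 3 below, none at 2-fold. Slc6a4, the serotonin transporter, had 397.2 in the immobilized rat and 451.9 in the control rat (log2 ratio -0.16, -0.33 at another probe set). Slc18a3, which loads acetylcholine into the vesicles of neurons, had 88.7 in the immobilized rat and 86.9 in the control rat (log2 ratio 0.05, -0.47 at another probe set). Slc6a9, a glycine transporter, had a log2 ratio of -0.44, Slc1a1, a glutamate transporter, 0.38, and Slc6a8, a creatine transporter of the same family, 0.20. Of 37 genes of receptor coupling, 17 were above the median on both arrays, 10 with a ratio above 0 and 7 below. Gnb1, a G protein beta subunit, had 579.0 in the immobilized rat and 275.9 in the control rat (log2 ratio 1.09, a 2.13-fold higher signal under immobilization, with 0.48 at another probe set). It was the only one of the 17 at 2-fold, against 2.03% of 2516 genes at 2-fold higher and 0.676% at 2-fold lower. The gamma subunits Gng7 and Gng8 had log2 ratios of -0.45 and -0.41, and the receptor-desensitizing Arrb2 had 0.42 (0.00 at another probe set). Of 15 genes of receptor anchoring, 8 were above the median on both arrays, 3 with a ratio above 0 and 5 below, none at 2-fold. Homer1, a scaffold of metabotropic glutamate receptors, had a log2 ratio of -0.64 (1.56-fold lower in the immobilized rat, and -0.27 at another probe set), the scaffolds Dlg1 and Dlg3 had -0.49 and 0.34, and Grip2, which binds AMPA receptors, had 0.39. All of these ratios but those of Maoa, Gnb1 and Homer1 were under 2 technical SDs. Slc1a1 and Dlg1 were read by 3 probe sets and Gng7, Gng8 and Grip2 by 2. Their further probe sets were not above the median on both arrays and gave no ratio.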

How the data were processed

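The members and lists were chosen with earlier results of these data known. The authors deposited signal intensity values, 1 per probe set and array, on a linear scale; per the design text they come from the manufacturer's software with its filtering and normalization, and per the submitters' processing notes from MAS5, so the algorithm is unsettled. Detection calls were not used here. Of 8799 probe sets 59 were array controls, 7006 had 1 symbol, 308 several and 1426 none. All 125 members matched a RefSeq gene ID and 0 symbols changed; no probe set with several symbols matched.

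A factor of 1.02 on the immobilized array set the median log2 ratio to 0 over probe sets past the 50th percentile on both arrays. The floor was each array's median without controls. Log2 ratios were taken only above it on both arrays; otherwise a bound, the signal over the other array's floor, was given. Lists used the brightest probe set of a gene. Named were all receptor genes above the median on an array, well-known gut receptors below it, and the 4 genes of each pathway list farthest from 0. Further genes were named outside this rule. Among them were Chat, Gad1, Gad2, Dbh, Tph1, Hdc, Th, Ache and Slc18a3 of the pathway lists and the receptor genes Grin1 and Gabrp. With 1 array per group no test was made. The counting was tested on simulated data. Tools were Python 3.11.15, numpy 2.4.6, pandas 2.3.3, statsmodels 0.14.6 and matplotlib 3.10.9.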

Additional observations from a re-analysis of the deposited data

How the results depend on the processing

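The position of the floor set the receptor shares. With the floor at the 30th percentile of each array, 44.8% of receptor probe sets were above it in the immobilized rat and 50.4% in the control rat, and 50 (40.0%) on both arrays, against 66.7% of all probe sets with 1 symbol. At the 70th percentile the shares were 2.4% in the immobilized rat and 3.2% in the control rat, with 3 (2.4%) on both arrays, against 28.7%. With 1 probe set a gene, 22.9% were above the median in the immobilized rat, 33.7% in the control rat and 22.9% on both. At that setting 2516 of all 4736 genes with 1 symbol were above it on both arrays. The count at 2-fold was 0, and 4 with the floor at the 30th percentile, where Chrnb4 (2.35-fold) was higher and Grin2d (2.35-fold), Gabra6 (2.18-fold) and Gabra2 (2.12-fold) were lower in the immobilized rat, against 3.23% higher and 2.21% lower of 4671 probe sets. With the floor at the median it was also 0 of 19 at thresholds of 1.5-fold and 3-fold. No share over all probe sets is given for these thresholds, so these counts are not read as a result about the receptors. The 0 at 3-fold follows from the 0 at 2-fold. The median log2 ratio of receptors above the floor ranged from -0.22 to -0.08 over the floors and scalings run, with -0.08 from 3 probe sets at the 70th percentile. Of the 19 named receptor probe sets, the sign turned under a scaling for Htr6 alone (quantile normalization). Counting array controls in the median and 1 floor for both arrays changed no share by more than 5 percentage points. Counting probe sets with several symbols and leaving out matches that are no receptors could not change a share, since neither kind was found. No paired analysis was possible because each group has 1 array and the result comes from no test. Signals near the median, on single arrays with 1 animal each, limit every bound and every count of receptors above it.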

Other observations

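Across the 125 receptor probe sets the Spearman correlation of the arrays was 0.86, against 0.96 over all probe sets with 1 symbol. These sets differ in signal range, as 95.2% of receptor probe sets were under 100 on both arrays, against 63.2% of all with 1 symbol. The part of this difference in the lower correlation was not tested. Both arrays share the probes and their binding strength, and probe sets are not independent replicates. The 2 probe sets of Grina, left out of the receptors, had 770.4 and 1426.6 in the immobilized rat and 651.0 and 1219.5 in the control rat, with log2 ratios of 0.27 and 0.25.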
